A study of Mus musculus with 14 samples.

Results

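The germline Tudor domain proteins are a family of 9 genes of the mouse testis, Tdrd1, Tdrd5, Tdrd6, Tdrd7, Tdrd9, Tdrd12, Tdrkh, Rnf17 and Stk31, described here at the level of RNA in spermatogonia and spermatocytes with and without DNMT3C. They were chosen by name, with earlier results of these data known, and all 9 were found in both count tables, among 32667 genes for spermatogonia and 36888 for spermatocytes. Polyadenylated RNA was sequenced from germ cells of Dnmt3C KO/KO mice (KO) and wild-type mice (WT) on a C57Bl6/J background. The paper mentions littermates in its RNA collection, without saying which libraries shared a litter. DNMT3C is a DNA methyltransferase of rodent male germ cells that methylates the promoters of young retrotransposons. Spermatogonia (Spg) came from testes at postnatal day 14 and were sorted as live cells without β2-microglobulin and with Ep-CAM, giving 3 KO and 3 WT libraries. Spermatocytes (Spc) came from mice older than 20 days and were sorted on Hoechst staining and propidium iodide exclusion, giving 4 KO and 4 WT libraries. The KO is a constitutive loss that arrests germ cells at pachytene, whereas the WT spermatocyte sort also held later stages, and stage and age differ together between the sorts. The sources used here do not say whether each library is 1 animal.

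Tudor domains are folds that bind methylated arginines, and in germ cells their best known partners are the PIWI proteins, whose tails carry such arginines. PIWI proteins hold piRNAs, small RNAs that guide the silencing of retrotransposons and, in meiosis, are made in large amounts from dedicated loci. Tudor proteins gather PIWI proteins with the processing enzymes in nuage, the granules between mitochondria of spermatogonia and spermatocytes, and later in the chromatoid body of round spermatids.

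In spermatocytes 8 of the 9 genes fell in KO, from Tdrd6, which was close to absent, to Stk31, and Tdrkh alone did not pass the test. Over all features 57.4% were called in that comparison and 30.1% fell. In spermatogonia, where 0.0741% of all features were called, none of the 9 passed, although all 9 lay below WT. In WT the same 8 genes were higher in spermatocytes than in spermatogonia (51.4% of all features called, 28.9% higher). In KO none of the 9 differed between the stages past the threshold, and 2.99% of all features did. The plot of all libraries shows each of these values.

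**Figure D1:**
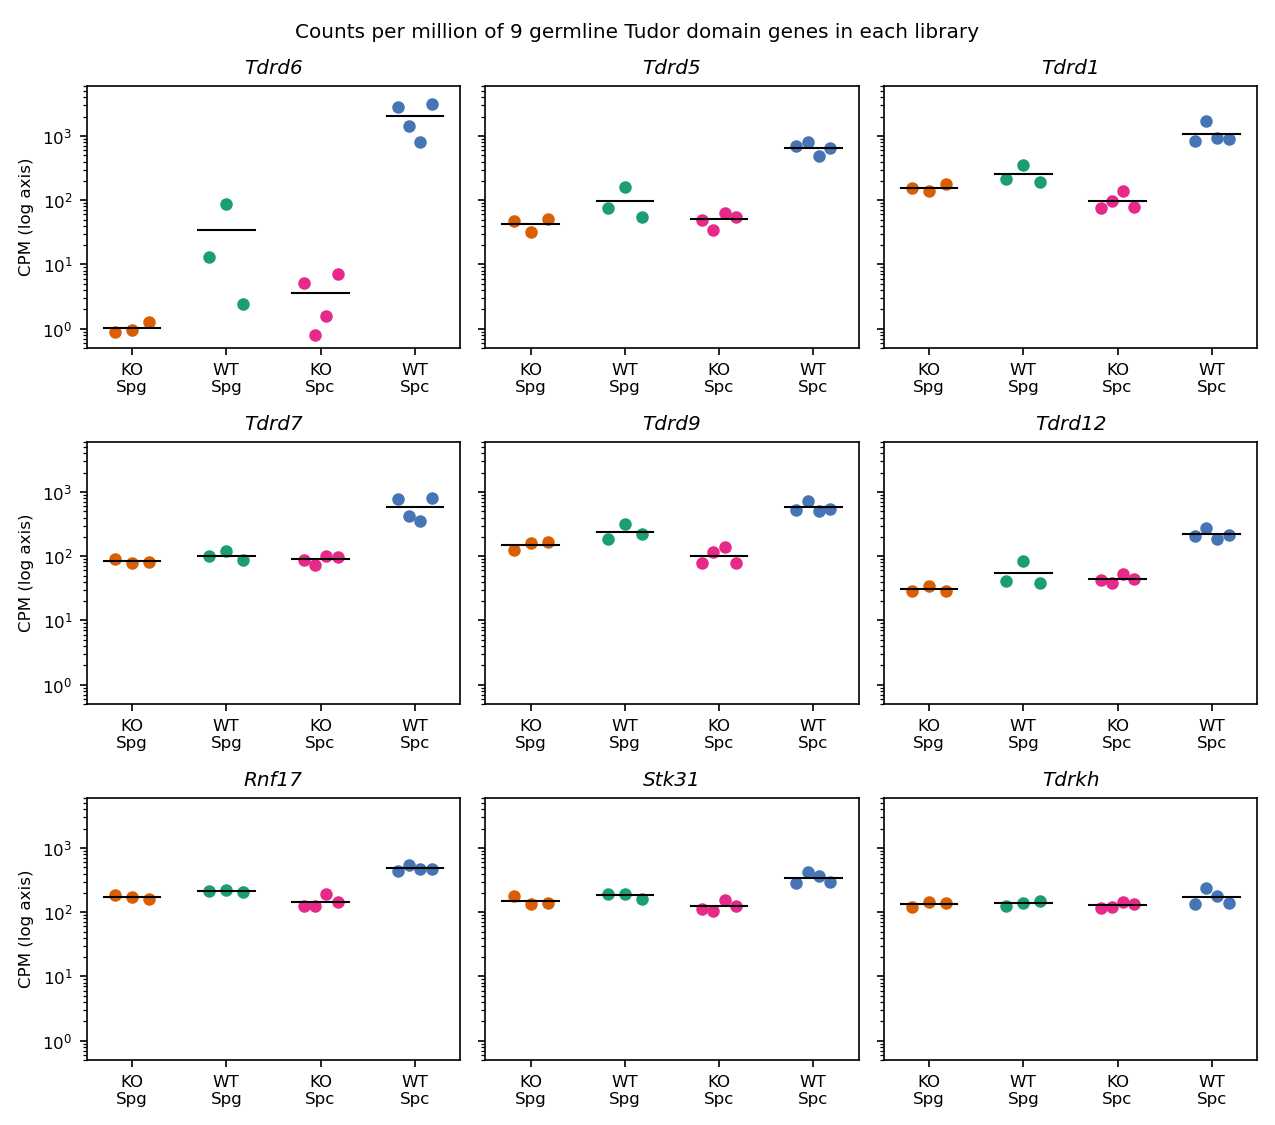
The level in CPM (log axis) of each gene, with 1 point per library and a bar at the group mean, for KO and WT spermatogonia (Spg, n = 3 each) and KO and WT spermatocytes (Spc, n = 4 each). The 4 WT spermatocyte libraries sit above every other library for all genes except Tdrkh, and Tdrd6 spans from 0.788 to 3161 CPM. The share of all features with this order was not computed. Over all features 57.4% were called in KO against WT spermatocytes and 51.4% between the WT stages.

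Values are CPM, counts per 1000000 after scaling with TMM factors, and errors are SD over libraries. KO against WT was tested with edgeR's quasi-likelihood test, two-sided, and p-values were adjusted with the Benjamini-Hochberg method over all genes and transposable element (TE) subfamilies tested. A change was called at an adjusted p under 0.01. Library totals ran from 40555726 to 53323651 counts, and the lowest count of a member in any library was 44. Dnmt3c itself had 58 to 116 counts in KO spermatogonia (WT 53 to 89) and 52 to 57 in KO spermatocytes (WT 11 to 28), and so did not serve to check the labels. Spermatocyte replicates 1 and 4 were much alike within each genotype (11.6 and 14.9 chi-square units per feature, against 129 to 286 for the other spermatocyte pairs). The medians were 2.65 (KO) and 1.82 (WT), against 12.7 to 43.1. They differed by more than sampling noise and were kept as separate libraries. The paper names 3 biological replicates for these cells, and 4 libraries per genotype were used here. Whether replicates 1 and 4 share animals was not tested, and SDs, SEs and p-values with n = 4 treat these replicates as independent. With their counts summed to 1 library in each genotype, the share of features called below went from 57.4% to 38.2% in KO against WT spermatocytes, from 24.9% to 14.3% in the interaction, from 51.4% to 45.0% in the WT stage contrast and from 2.99% to 1.41% in the KO stage contrast. The number of members called was then 8, 6, 8 and 0.

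The scaling between libraries moved the values of spermatocytes. With TMM the median gene had a log2 fold change of 0.11 in KO against WT spermatocytes, and with library totals it was 0.79 (in the interaction described below, 0.20 and 0.90). In the WT contrast of the stages the median moved from 0.02 to -0.76. Values are given with TMM, and a direction or a call that changed with library totals is given beside its gene. Sorted bulk RNA was measured, so that fewer cells expressing a gene and less RNA of it per cell cannot be told apart.

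The sorted populations differed in their markers. The summed level of 6 pachytene genes (Adam3, Ccna1, Hspa2, Ldhc, Pgk2 and Pou5f2) was 6521 to 13200 CPM in WT spermatocytes and 121 to 248 in KO spermatocytes. The sum of 7 early meiotic genes, among them Sycp1, Sycp3 and Spo11, was 1197 to 2298 CPM in KO spermatocytes and 1314 to 2368 in those of WT, but single genes of this list differed. Prdm9 (a log2 difference of 3.34, SE 0.62), Dmc1 (2.88, SE 0.61) and Meiob (2.03, SE 0.41) were higher in KO, Spo11 was lower (-2.06, SE 0.24), and the other 3 did not pass. Spermatid genes summed to 94.8 to 1838 CPM in WT and 2.38 to 11.6 in KO spermatocytes, and spermatogonial genes to 35.9 to 258 and 407 to 1040. KO spermatocytes also held more RNA of Leydig genes (53.4 to 318 CPM, against 13.9 to 29.5 in WT), of macrophage genes (17.02 to 102, against 2.50 to 5.08) and of peritubular genes (15.4 to 147, against 2.82 to 9.10). The Sertoli sums overlapped, at 294 and 261 CPM in KO replicates 1 and 4, 69.0 and 102 in the other KO libraries and 30.7 to 103 in WT, and 1 of the 6 Sertoli genes passed the test. Erythroid genes summed to 1.00 to 9.76 CPM in KO spermatocytes (WT 1.48 to 7.43). Every gene of these lists had counts in both spermatocyte groups. In spermatogonia the spermatogonial sum was 1313 to 1677 CPM in KO and 1058 to 1487 in WT, and the protamine gene Prm1 was at 0 in both groups. The early meiotic sum there was 649 to 1057 CPM in KO, lower than the 962 to 1195 of WT in each pair of the same number. Sertoli genes summed to 128 to 405 CPM in KO spermatogonia (WT 89.3 to 335). The part of these populations in the results below was not tested.

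The genes lie on 9 chromosomes of GRCm38. Tdrd1 (ENSMUSG00000025081.13) lies at chr19:56826209-56870012 on the plus strand, Tdrkh (ENSMUSG00000041912.12) at chr3:94413273-94434668 on the plus strand and Tdrd5 (ENSMUSG00000060985.15) at chr1:156255296-156303664 on the minus strand. Tdrd9 (ENSMUSG00000054003.13) lies at chr12:111971559-112068854 on the plus strand and Tdrd12 (ENSMUSG00000030491.16) at chr7:35469098-35537745 on the minus strand. Tdrd6 (ENSMUSG00000040140.15) lies at chr17:43615335-43630299 on the minus strand and Tdrd7 (ENSMUSG00000035517.17) at chr4:45965334-46034761 on the plus strand. Rnf17 (ENSMUSG00000000365.9) lies at chr14:56402581-56525032 and Stk31 (ENSMUSG00000023403.14) at chr6:49395604-49469501, both on the plus strand. Tdrd6 is the shortest gene and has 5 exons in its longest coding transcript, whereas Rnf17 has 37 and Tdrd9 has 36. Tdrkh overlaps Oaz3, a gene of late spermatogenesis, on the opposite strand, and the counting was strand-aware. Strand does not separate overlaps on the same strand, which are those of Tdrkh with Gm42463, Tdrd5 with A430050A11Rik, Tdrd12 with Gm18558 and Rnf17 with Gm24392.

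The 250 bases before a transcription start in RefSeq (GRCm38.p6) were read for 7 members, taking the start nearest to that of the gene where there were several. The window of Tdrd5 belongs to a start 316 bases inside the gene as placed above, so that it lies within that gene, and the other 6 nearest starts were at most 29 bases away from the gene's start. These windows were searched on both strands for 8 motifs. The letters CACGTG, an E-box, stood in 3 of the 7 windows (Tdrd1, Tdrd9 and Stk31) and in 6.02% of all 32851 promoter windows of the same length. GCATGCG, the core of the NRF1 motif, stood in those of Tdrd9 and Stk31 and in 3.02% of all windows, and the longer GCGCATGCG, which contains that core, in that of Stk31 and in 1.45%. The MYB letters AACGG stood in the windows of Tdrd5, Tdrd9 and Tdrd12 (14.5% of all windows), and AACTG in those of Tdrd7, Tdrkh and Stk31 (39.1%). TCCCGC (E2F) was found for Tdrd5 (16.9% of all), TGACG (part of the CREB site TGACGTCA) for Tdrd5 (17.8%), and TGACGTCA for none (1.55%). With all 13 RefSeq windows of these members, AACGG was also found for Tdrd7, AACTG for Tdrd1 and TGACG for Tdrd1 and Tdrd7. CpG sites numbered from 3 (Tdrd7) to 40 (Tdrd5) in the 7 windows, and the median of all windows was 6. The other windows of Tdrd7, at 6963 and 7497 bases from the gene's start, held 28 and 29, and those of Tdrd1 22 and 3 beside 11 in the one nearest to the gene's start. A match of letters is not a bound site. The 3 windows with an E-box are printed 5′ to 3′ on the strand of the gene, at chr19:56825959-56826208 for Tdrd1, chr12:111971309-111971558 for Tdrd9 and chr6:49395354-49395603 for Stk31. Capitals mark, on either strand, the E-box, the shorter and longer NRF1 letters and the first MYB motif, AACGG.
Tdrd1: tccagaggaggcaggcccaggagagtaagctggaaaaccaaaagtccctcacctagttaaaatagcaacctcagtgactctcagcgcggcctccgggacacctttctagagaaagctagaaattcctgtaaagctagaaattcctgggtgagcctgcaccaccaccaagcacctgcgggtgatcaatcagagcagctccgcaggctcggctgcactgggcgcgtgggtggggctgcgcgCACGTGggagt
Tdrd9: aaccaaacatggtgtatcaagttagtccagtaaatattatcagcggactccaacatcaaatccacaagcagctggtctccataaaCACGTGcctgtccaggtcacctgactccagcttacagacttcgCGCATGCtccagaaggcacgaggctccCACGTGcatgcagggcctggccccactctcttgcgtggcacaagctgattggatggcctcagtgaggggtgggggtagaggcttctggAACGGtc
Stk31: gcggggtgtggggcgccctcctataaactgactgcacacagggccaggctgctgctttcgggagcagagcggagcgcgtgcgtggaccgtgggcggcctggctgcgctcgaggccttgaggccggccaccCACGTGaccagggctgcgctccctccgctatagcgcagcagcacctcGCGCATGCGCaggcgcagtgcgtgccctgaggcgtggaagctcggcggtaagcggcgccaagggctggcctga

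The comparison of KO with WT spermatocytes asked how the Tudor genes stood in cells sorted as spermatocytes from mice that lack DNMT3C. Of the 9 genes 8 fell, none rose, and all 8 had every KO library below every WT library. The background is high here, since 57.4% of the 22848 features tested were called, 30.1% as falling (21.7% with library totals), and 34.4% had every KO library below every WT library. The median log2 fold change of the members was -2.47, beside 0.11 over all genes. The summed pachytene markers also had every KO library below every WT library, at 121 to 248 and 6521 to 13200 CPM. Adjusted p-values below are those of edgeR.

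Among the genes of the chromatoid body, Tdrd6, which builds its architecture, had 5.11, 0.788, 1.58 and 7.03 CPM in the KO libraries 1 to 4, against 2868, 1435, 819 and 3161 in those of WT. The KO and WT libraries were far apart, although each group spread widely. Its log2 fold change was -9.15 (SE 0.92, 95% CI -11.20 to -7.11, adjusted p 2.7e-05), a 569.7-fold difference. Tdrd7, which acts in the remodelling of the same granule, had 87.7, 73.4, 99.5 and 98.0 CPM in KO and 786, 427, 360 and 798 in WT. Its groups did not overlap, and its WT libraries fell into a higher pair, replicates 1 and 4, and a lower pair. The log2 fold change was -2.72 (SE 0.32, adjusted p 6.7e-05), 6.58-fold.

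Among the organisers of nuage, Tdrd5, needed for the assembly of these granules, had 50.1, 34.1, 62.7 and 55.3 CPM in KO and 687, 818, 482 and 643 in WT. Its log2 fold change was -3.68 (SE 0.27, adjusted p 5.1e-06), the smallest p among the members. Tdrd1, a partner of the PIWI protein MILI in the cement between mitochondria, had 74.9, 98.0, 141 and 78.6 CPM in KO and 832, 1685, 927 and 899 in WT. The log2 fold change was -3.44 (SE 0.31, adjusted p 1.5e-05), with no overlap and WT replicate 2 far above the others. Tdrkh, which anchors PIWI proteins at the mitochondrial membrane for trimming of piRNA ends, had 115, 122, 143 and 136 CPM in KO and 133, 236, 182 and 140 in WT. Its groups overlapped, and its log2 fold change was -0.39 (95% CI -0.85 to 0.07, adjusted p 0.11). With library totals it was 0.28 (adjusted p 0.35) and so turned in sign.

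The helicase members fell by 5.54-fold (Tdrd9) and 4.92-fold (Tdrd12). Tdrd9, an RNA helicase that works with the PIWI protein MIWI2 in fetal germ cells, had 77.7, 115, 138 and 77.4 CPM in KO and 532, 715, 514 and 538 in WT, and its log2 value was -2.47 (SE 0.25, adjusted p 2.6e-05). Tdrd12, a helicase-like protein of secondary piRNA production, had 42.6, 38.3, 52.9 and 43.4 CPM in KO and 204, 279, 187 and 216 in WT, and its log2 value was -2.30 (SE 0.20, adjusted p 1.2e-05). For both genes the KO and WT ranges were far apart.

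The last pair are Rnf17, a Tudor protein with a RING finger, and Stk31, which joins a Tudor domain to a kinase-like domain. Rnf17 had 126, 124, 191 and 143 CPM in KO and 432, 551, 464 and 473 in WT, and its log2 value was -1.69 (SE 0.20, adjusted p 7.0e-05). Stk31 had 114, 103, 153 and 123 CPM in KO and 285, 422, 367 and 296 in WT, and its log2 value was -1.45 (SE 0.20, adjusted p 0.00017). These were the smallest falls that passed, and with library totals Stk31 no longer did (-0.78, adjusted p 0.016), which left 7 genes.

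**Figure D2:**
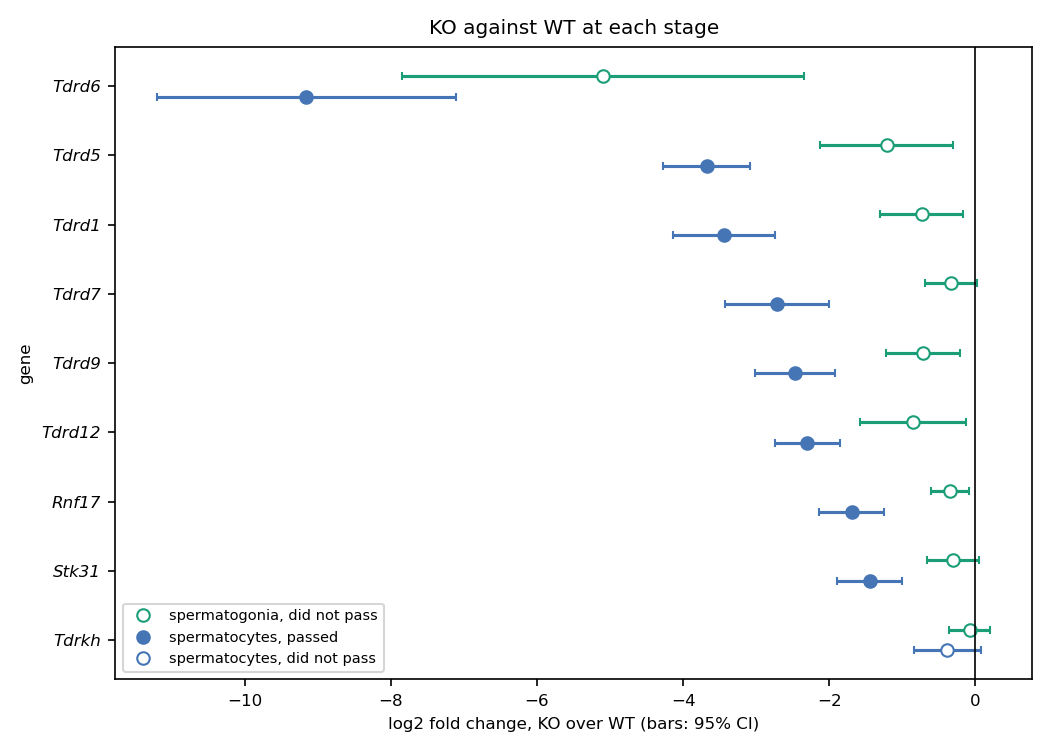
The log2 fold change of KO over WT for each gene in spermatogonia (n = 3 against 3) and spermatocytes (n = 4 against 4), with 95% confidence intervals, where filled points passed an adjusted p under 0.01. Of the spermatocyte points 8 of 9 are filled, from -9.15 (Tdrd6) to -1.45 (Stk31), and none of the spermatogonia points is.

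In the cells sorted as spermatogonia 0 of the 9 genes passed with edgeR, and 6 had an unadjusted p under 0.05. This sort also held RNA of early meiotic genes, which summed to 649 to 1057 CPM in KO and 962 to 1195 in WT. Calls were rare at this stage, 0.0741% of 21580 features, or 16, with 1566 at an unadjusted p under 0.05. The 16 became 4 without KO replicate 2 or WT replicate 1, 8 without KO replicate 3, and 24 without WT replicate 3. With the replicate number as a block 0.551% were called and again none of the 9. DESeq2 called 2.49% and 1 of the 9, Tdrd6 (adjusted p 0.0023). All 9 estimates lay below 0, with a median of -0.72 beside 0.02 over all genes, and 6 genes had every KO library below every WT library, as 6.1% of features did.

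Tdrd6 had 0.890, 0.951 and 1.28 CPM in KO and 13.1, 86.6 and 2.46 in WT spermatogonia, from counts of 52, 54 and 72 in KO and 757, 4351 and 135 in WT. The KO libraries lay close together, and the WT libraries spread over a wide range above them. Its log2 fold change was -5.10 (95% CI -7.84 to -2.35, edgeR adjusted p 0.16, and 0.0023 to 0.68 over the alternatives). With the replicate block it was -3.88 (adjusted p 0.18), and without WT replicate 2 it was -2.91. The summed pachytene markers followed the same order, at 283, 976 and 145 CPM in WT replicates 1 to 3 and 69.9 to 77.1 in KO. WT replicate 2 was the highest WT library for 7 of the 9 members in CPM and for 6 in counts. The part of the pachytene markers in these values was not tested.

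The other members differed less between the genotypes in spermatogonia, at most 2.32-fold (Tdrd5, and 1.52-fold without WT replicate 2). Tdrd5 had 46.9, 31.7 and 50.7 CPM in KO and 75.3, 160 and 55.0 in WT (log2 fold change -1.21, 95% CI -2.13 to -0.30, adjusted p 0.40). Its groups did not overlap, but the gap between the highest KO and the lowest WT library was small. Tdrd12 had a log2 fold change of -0.86 (adjusted p 0.51), Tdrd1 of -0.74 (adjusted p 0.42) and Tdrd9 of -0.72 (adjusted p 0.35). Rnf17, at -0.35 (adjusted p 0.40), had the tightest WT group, with an SD of 3.72% of the mean. Tdrd7 was at -0.33 and Stk31 at -0.31 (adjusted p 0.76 and 0.81). Tdrkh had 121, 144 and 138 CPM in KO and 127, 138 and 151 in WT (-0.08, 95% CI -0.36 to 0.20, adjusted p 1.0).

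Whether the KO effect was of the same size at both stages was asked with the interaction term of a fit to the 14 libraries. For 7 of the 9 genes the KO effect was more negative in spermatocytes, where 24.9% of 25318 features were called and 14.3% in this direction. It was -2.78 for Tdrd1 (SE 0.42, adjusted p 0.00040), -2.54 for Tdrd5 (SE 0.47, adjusted p 0.0012), -2.43 for Tdrd7 (SE 0.37, adjusted p 0.00039) and -1.81 for Tdrd9 (SE 0.35, adjusted p 0.0014) on the log2 scale. Tdrd12 (-1.51, adjusted p 0.0053), Rnf17 (-1.41, adjusted p 0.00077) and Stk31 (-1.20, adjusted p 0.0037) followed. Tdrd6 did not pass (-4.13, 95% CI -6.98 to -1.28, adjusted p 0.022), nor did Tdrkh (-0.37, 95% CI -0.97 to 0.23, adjusted p 0.29). Tdrd6 passed with the replicate block (-5.58, adjusted p 0.0074), with DESeq2 (-4.23, adjusted p 0.0029) and without WT spermatogonia replicate 2 (-6.21, adjusted p 0.0018). The share of features called went from 24.9% to 14.6%, 15.8%, 15.3% and 16.3% without KO spermatogonia replicates 3 and 2 and WT spermatogonia replicates 1 and 3. With library totals 3 genes passed, Tdrd1, Tdrd5 and Tdrd7, beside 6.88% of features called in this direction, and Tdrkh turned to 0.33.

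The calls of Tdrd12 and Stk31 in the interaction were lost when single libraries were left out. Tdrd12 lost its call with spermatocyte replicates 1 and 4 summed (-1.57, edgeR adjusted p 0.014), with library totals (-0.76) and without any 1 of 9 libraries, namely KO spermatogonia replicates 1, 2 and 3, WT spermatogonia replicates 1 and 3, KO spermatocytes replicates 1, 2 and 4 and WT spermatocytes replicate 2, with log2 values of -1.47 to -1.22 and adjusted p-values up to 0.024 from edgeR. Stk31 lost it without KO spermatogonia replicate 1 or 3, WT spermatogonia replicate 1 or 3 or KO spermatocytes replicate 1 (-1.17 to -0.98, adjusted p up to 0.016).

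The stage contrast within WT asked which members are higher in spermatocytes. It shares the WT spermatocyte libraries with the genotype comparison, so that both are given side by side and not as separate support. Of the 9 genes 8 rose, where 51.4% of 25318 features were called and 28.9% rose (18.3% with library totals). Tdrd6 had the largest log2 rise, 5.93 (SE 1.15, edgeR adjusted p 0.00050), followed by Tdrd5 with 2.77 (SE 0.36, adjusted p 3.2e-05) and Tdrd7 with 2.53 (SE 0.28, adjusted p 1.2e-05). The value of Tdrd6 was 7.96 without WT spermatogonia replicate 2, its highest library there, and 5.39 and 5.24 without replicates 1 and 3. Tdrd1 rose by 2.09, Tdrd12 by 2.03, Tdrd9 by 1.27, Rnf17 by 1.16 and Stk31 by 0.90, with adjusted p-values from 4.0e-05 to 0.0012. Tdrkh was at 0.32 (95% CI -0.11 to 0.74, adjusted p 0.18). Without WT spermatogonia replicate 1 Tdrd9 (0.96, adjusted p 0.0103) and Stk31 (0.79, adjusted p 0.0101) just missed the threshold, as Stk31 did without WT spermatogonia replicate 3 (0.68, adjusted p 0.019). With library totals 5 genes passed, Tdrd9, Rnf17 and Stk31 did not, and Tdrkh turned to -0.48.

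In KO the same contrast called 0 of the 9 genes with edgeR, with DESeq2 and with the replicate block, and 2 of the 9 (Tdrd1 and Tdrd9) had an unadjusted edgeR p under 0.05. Here 2.99% of features were called and 6209 had an unadjusted p under 0.05. That share was 0.428%, 0.605% and 0.832% without KO spermatogonia replicates 3, 2 and 1, and 1.57% and 1.53% without KO spermatocytes replicates 1 and 4. It was 3.66% and 4.04% without KO spermatocytes replicates 2 and 3. Of the estimates 5 lay below 0, and the median of the 9 was -0.06. Tdrd1 was at -0.68 (95% CI -1.31 to -0.05, edgeR adjusted p 0.17) and Tdrd9 at -0.55 (95% CI -1.06 to -0.03, adjusted p 0.18), both lower in spermatocytes. Tdrd12 was at 0.52 (95% CI -0.04 to 1.08, adjusted p 0.23), and it was the member whose KO spermatocyte libraries all lay above its KO spermatogonia libraries. The share of all features that did so was not computed. Tdrd6 was at 1.80 (95% CI -0.28 to 3.88, adjusted p 0.27), with counts of 253, 44, 83 and 345 in KO spermatocytes. Tdrd5, Tdrd7, Rnf17, Stk31 and Tdrkh were between -0.30 and 0.23. The confidence intervals of Tdrd5, Tdrd7 and Tdrkh reached at most 0.93 in either direction, below the WT rises of Tdrd5 and Tdrd7.

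**Figure D3:**
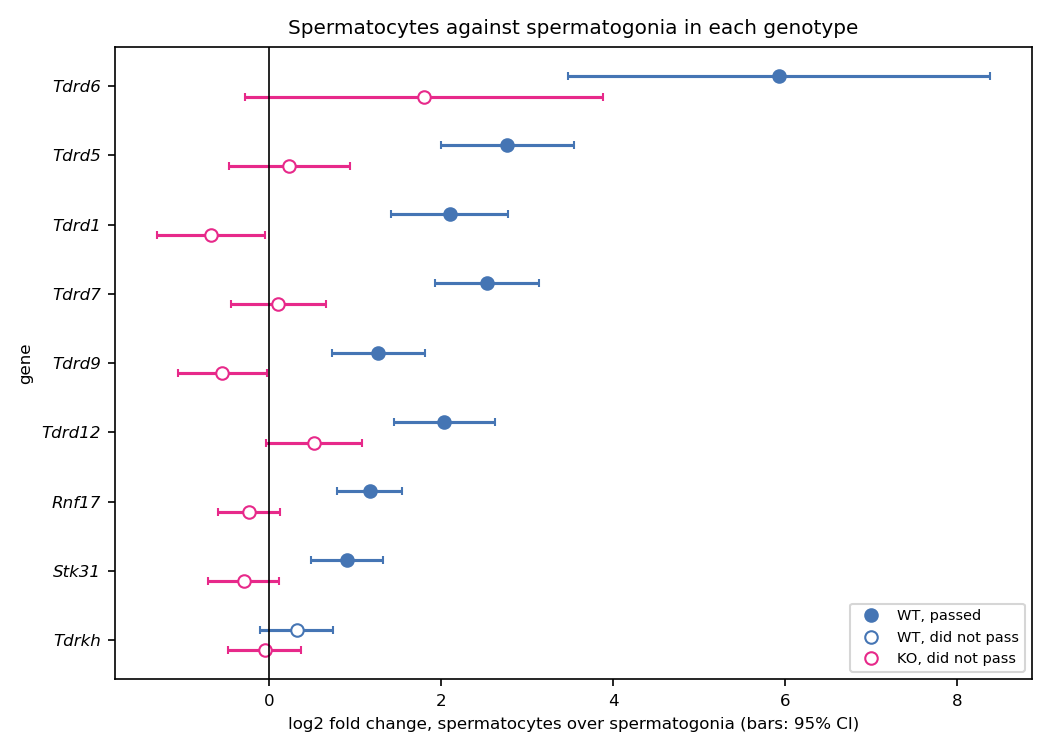
The log2 fold change of spermatocytes over spermatogonia for each gene in WT (n = 4 against 3) and in KO (n = 4 against 3), with 95% confidence intervals, where filled points passed an adjusted p under 0.01. In WT 8 of 9 points are filled, between 0.90 and 5.93, while the KO points lie between -0.68 and 1.80 and none is filled.

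Levels of different genes were compared per exon length, as CPM per kilobase of the union of the gene's exons. In KO and WT spermatogonia and in KO spermatocytes Stk31 was first of the 9 (46.9 ± 7.67, 56.6 ± 5.32 and 38.1 ± 6.57 CPM per kb, SD) and Tdrd6 was last (0.147 ± 0.0295, 4.82 ± 6.49 and 0.514 ± 0.417). In WT spermatogonia neither Stk31 and the next gene, Tdrd1 (46.7 ± 16.3), nor Tdrd6 and the gene before it, Tdrd12 (12.5 ± 5.86), differed by more than the sum of their SDs. In WT spermatocytes Tdrd6 was first, at 293 ± 159 CPM per kb (n = 4), and Tdrkh was last, at 28.1 ± 7.71. In WT spermatocytes Tdrd1 followed at 199 ± 73.8, Tdrd7 at 150 ± 58.6, Tdrd9 at 106 ± 17.3, Stk31 at 106 ± 19.9, Tdrd5 at 94.8 ± 19.97, Rnf17 at 76.9 ± 8.06 and Tdrd12 at 51.1 ± 9.27 CPM per kb. Neighbours from Tdrd6 down to Rnf17 differed by less than the sum of their SDs, and the steps from Rnf17 to Tdrd12 and from Tdrd12 to Tdrkh were larger than that. With library totals Stk31 and Tdrd9 changed places, and with the length of the longest coding transcript Tdrd5 moved up to follow Tdrd1, while in both orders Tdrd6 stayed first and Tdrkh last. In KO spermatocytes Rnf17, Tdrd7, Tdrkh, Tdrd9 and Tdrd1 lay together between 18.01 and 23.4 CPM per kb, and neighbours in that order differed by less than the sum of their SDs.

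**Figure D4:**
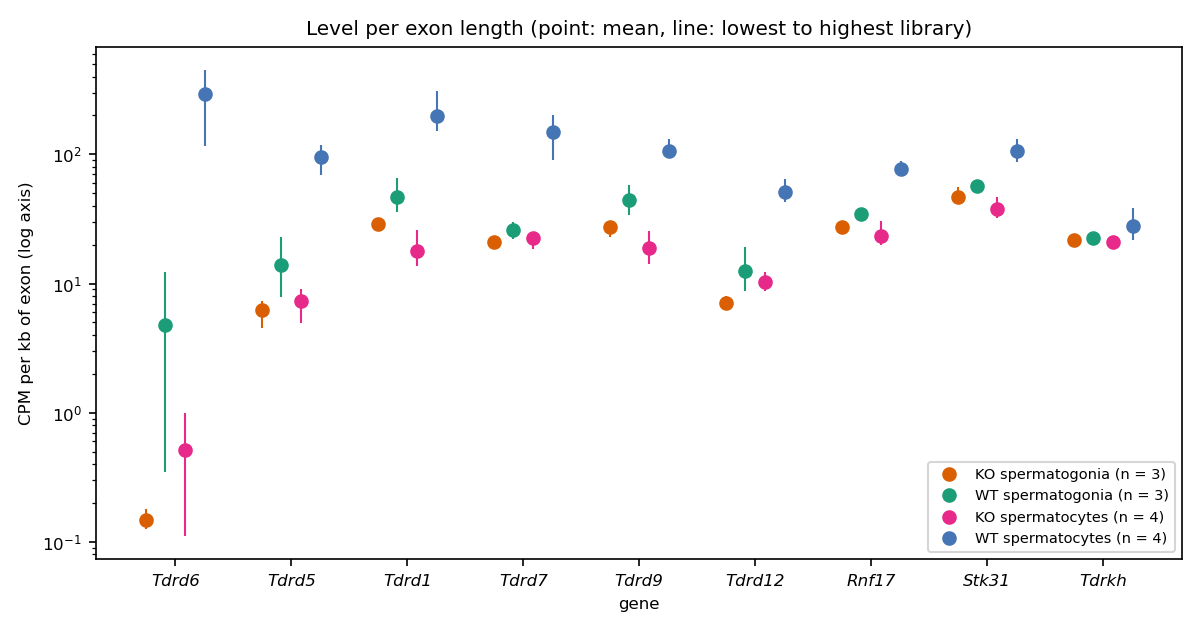
The level of each gene per exon length (CPM per kb, log axis) in the 4 groups, with a point at the mean and a line from the lowest to the highest library. Tdrd6 is the lowest gene in 3 groups and the highest in WT spermatocytes, where its mean is 293 CPM per kb, while the 4 group means of Tdrkh lie between 21.05 and 28.1.

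The replicates of a group also split the members. In WT spermatocytes Tdrd6 and Tdrd7 were highest in replicate 4, with replicate 1 next, and the other 7 genes were highest in replicate 2. In counts before scaling 5 of those 7 were highest in replicate 2, and Rnf17 and Stk31 in replicate 3, while Tdrd6 and Tdrd7 were highest in replicate 1. The pachytene sum was 13200 and 12640 CPM in replicates 1 and 4 and 9604 and 6521 in replicates 2 and 3, while the spermatid sum was lowest in replicate 2, at 94.8 CPM, and highest in replicate 3, at 1838. In KO spermatocytes 8 of the 9 genes were highest in replicate 3, and Tdrd6 was highest in replicate 4, which also had the highest pachytene sum, 248 CPM. In WT spermatogonia and in KO spermatocytes the libraries had the same order by Tdrd6 as by the pachytene sum, while replicates 1 and 4 were exchanged in WT spermatocytes and replicates 1 and 2 in KO spermatogonia. The libraries fall into separate clusters by group, so that no correlation over them was computed.

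**Figure D5:**
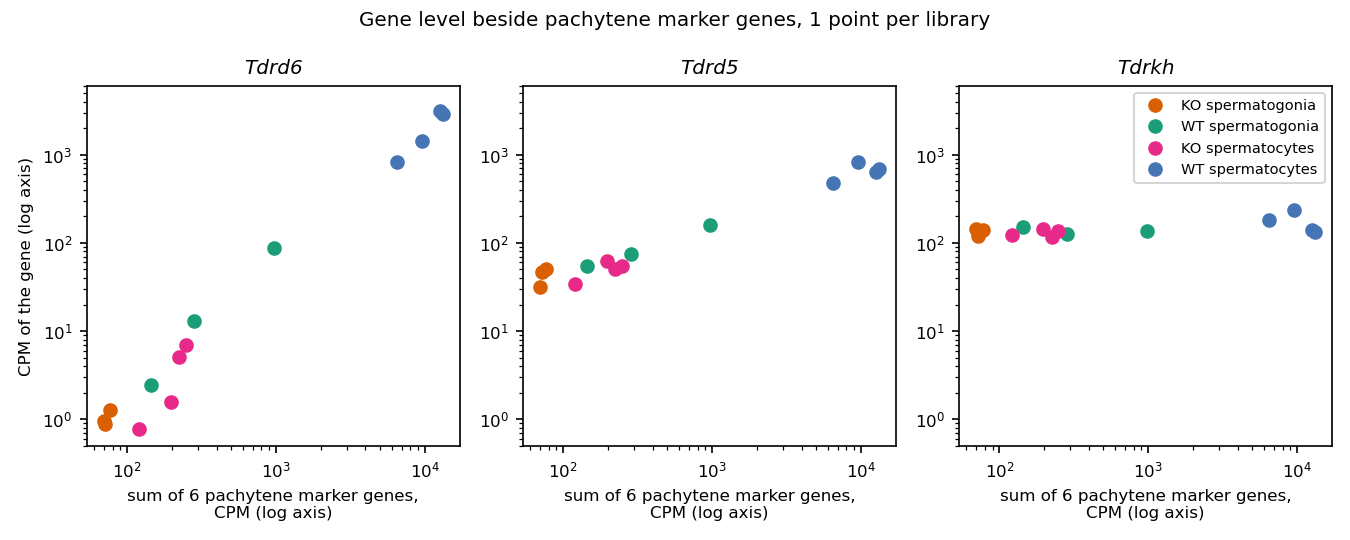
The level of Tdrd6, Tdrd5 and Tdrkh (CPM, log axis) against the summed level of 6 pachytene marker genes (CPM, log axis), with 1 point per library, coloured by group. The WT spermatocytes are at the upper right for Tdrd6, which spans 0.788 to 3161 CPM over all libraries, and for Tdrd5, which spans 31.7 to 818, while Tdrkh lies between 115 and 236 CPM.

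The rest of the piRNA pathway was followed in a list of 20 genes. In spermatocytes 9 fell in KO, 2 rose and 9 did not pass, with a median log2 fold change of -0.88 (6 fell and 2 rose with library totals). Over all features 57.4% were called and 30.1% fell, so that the share of this list called, 11 of 20, was near the background. The largest falls were those of Piwil1, the PIWI protein of pachytene piRNAs (-7.57, SE 0.35, edgeR adjusted p 2.5e-06), Gtsf1, a cofactor of PIWI slicing (-4.66, SE 0.36), and Pld6, the mitochondrial nuclease that cuts piRNA precursors (-4.18, SE 0.39). Piwil1 had 9.51 to 18.4 CPM in KO spermatocytes (WT 2007 to 3691), and its fall came next in size to that of Tdrd6 among the members and this list. Tex15 (2.54, SE 0.41, adjusted p 0.00039), a nuclear factor of piRNA-directed methylation, and Btbd18 (2.23, SE 0.57, adjusted p 0.0057), a nuclear regulator of pachytene piRNA loci, rose, and Btbd18 lost its call without any 1 of KO replicates 2 and 3 and WT replicates 1, 2 and 4 (1.90 to 2.22). Without WT replicate 3 the values of Tex15, Btbd18 and Piwil4 were 3.18, 3.003 and 3.95, all past the threshold. Mybl1, which encodes the transcription factor of pachytene piRNA genes, was at -0.59 (adjusted p 0.12), and its sign turned with library totals. Piwil2 was at -0.93 (adjusted p 0.013) and Piwil4, the gene of MIWI2, at 2.81 (adjusted p 0.022).

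In spermatogonia none of the 20 passed, with 5 at an unadjusted p under 0.05, and DESeq2 called 1, Piwil1. Piwil1 had the smallest adjusted p there (-4.07, SE 0.80, edgeR adjusted p 0.098, and 0.0097 without a filter on low counts), with 10.8 to 13.2 CPM in KO and 42.3 to 431 in WT. In the interaction 6 of the 20 were more negative in spermatocytes and 1, Tex15, more positive. Piwil1 (-3.59, adjusted p 0.0028) missed the threshold there with library totals (-2.82, adjusted p 0.0101) and without WT spermatogonia replicate 1 (-3.18). These 7 of 20 stand beside 24.9% of all features called in the interaction. WT spermatogonia replicate 2 held the 431 CPM of Piwil1, and without it Piwil1 was at -2.61 in spermatogonia (adjusted p 0.029), -4.94 in the interaction and 5.14 between the stages in WT. In WT 8 rose from spermatogonia to spermatocytes, led by Piwil1 (3.85), Gtsf1 (3.16) and Pld6 (2.88), and 4 fell, led by Piwil4 (-4.02), Tex15 (-3.23) and Btbd18 (-2.36), near the share of 51.4% called over all features (28.9% rose and 22.5% fell). Without WT spermatocytes replicate 3 the falls of Piwil4, Tex15 and Btbd18 were -5.17, -3.86 and -3.14, and without WT spermatogonia replicate 3 the rise of Piwil1 was 3.22. In KO the stage contrast called none, with 3 at an unadjusted p under 0.05. Mybl1 came nearest, at 1.76 (SE 0.40, edgeR adjusted p 0.016), beside 2.22 in WT, where it passed. Mybl1 passed in KO with DESeq2 (adjusted p 0.0010), with the replicate block (adjusted p 0.0090) and without KO spermatocytes replicate 2 (adjusted p 0.0053). Fkbp6 fell there with the replicate block (-0.88, adjusted p 0.0097), and none of the 9 Tudor genes passed in those 3 fits.

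A second list held 22 other genes with Tudor domains, mostly readers of methylated histones or parts of RNA complexes in all cells, of which 21 were tested. In spermatocytes 7 rose, 3 fell and 11 did not pass, with a median of 0.15 (11 rose and 2 fell with library totals). Over all features 27.4% rose and 57.4% were called, and this list's 10 of 21 was no higher. Phf19, a Polycomb partner (4.44, SE 0.91, edgeR adjusted p 0.0017), Spin1, a histone reader (2.31, SE 0.42), and Snd1, a Tudor nuclease (2.11, SE 0.34), had the largest rises. Phf1, a second Polycomb partner (-3.65, SE 0.26), Tdrd3, a topoisomerase partner (-2.03, SE 0.29), and Uhrf1, the partner of DNMT1 (-0.78, SE 0.22, adjusted p 0.0096), had the falls, and Uhrf1 kept its call in 7 of 19 alternatives and was at -0.04 with library totals. Phf19 did not pass with the replicate block (adjusted p 0.012). In spermatogonia none of the 21 passed, with 2 at an unadjusted p under 0.05. In the interaction 4 were more positive (Phf19, Spin1 and Snd1 first) and 2, Phf1 and Tdrd3, more negative, but of 25 alternatives Phf19 kept its call in 19, Spin1 in 17 and Tdrd3 in 9. These 6 of 21 stand beside 24.9% called over all features. In WT 2 rose with the stage, Phf1 (3.15) and Tdrd3 (2.08), and 5 fell, led by Phf19 (-3.41), Spin1 (-2.46) and Snd1 (-2.22), or 13 with library totals. The 7 of 21 stand beside 51.4% over all features. Without WT spermatocytes replicate 3, Phf19 was at 5.34 in KO against WT, 5.37 in the interaction and -4.33 between the stages in WT. In KO none passed between the stages, with 5 at an unadjusted p under 0.05.

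For each member the genes with the most alike pattern were sought among 14678 genes, as the root mean square (RMS) difference of their log2 CPM over the 14 libraries after centring each gene. Tdrd6 was closest to Atp8b3, Pabpc2 and Tcp10c (RMS 0.25, 0.33 and 0.35), and its nearest member, Tdrd5, was at 2.65. Tdrd7 was closest to Vdac2, Gpatch2 and Zfp646 (0.13, 0.13 and 0.14). Tdrd5 was closest to Ttc30a1, Ankrd45 and Lrrc73 (0.17, 0.23 and 0.25), and Tdrd1 to Dennd5b, Cyp2u1 and Klhl35 (0.28, 0.31 and 0.32). Tdrd9 was closest to Abcb6, Mroh1 and Enox1 (0.21, 0.27 and 0.27), and Tdrd12 to Gm36229, Sh2b3 and Dmrtc2 (0.16, 0.18 and 0.19). Tdrkh was closest to Angel2, Naa35 and Lrrc14 (0.04, 0.06 and 0.10), which varied as little as it did. Rnf17 was closest to Rimklb, Ddx4, the VASA helicase of nuage, and 5730480H06Rik (0.14, 0.14 and 0.16), and Stk31 to Nae1, Ddx18 and Rnf17 itself (0.15, 0.16 and 0.17). Rnf17 and Stk31 were the closest pair of members.

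Single TE copies inside the member genes or within 5000 bases of them were read from the authors' TPM values, scaled so that the TE copies of a library add up to 1000000. Of 1118 annotated copies 343 reached a mean of 0.5 TPM in a spermatocyte group, and 35 of these had every KO library below every WT library while 23 had the reverse. Over all 343631 TE copies at that minimum, 4.67% had every KO library below and 10.2% every KO library above those of WT. TE subfamilies took 5.74 to 8.67% of counts in KO spermatocytes (WT 1.77 to 2.93%), so that the same TPM stands for more reads in KO. Reads of a copy and of the gene around it on the same strand cannot be told apart in these values, which are a description with no test.

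In Tdrd6 10 of 17 copies were lower in KO, 1 of them overlapping an exon. The RSINE1 copy at chr17:43616765-43616893 was listed at 0 in all KO libraries and at 165 ± 28.0 TPM in WT (SD, n = 4). In Tdrd12 8 of 43 were lower, 3 of them just beyond the 3′ end of the gene, such as the PB1D10 copy at chr7:35467723-35467819 (129 ± 15.6 TPM in KO and 1109 ± 169 in WT). Tdrd5 had 8 of 32 lower and none higher. The reverse held for 11 of 88 copies at Rnf17, all on the gene's strand, and for 5 of 50 at Stk31. Both shares were near the 10.2% over all copies. The B4 copy of Rnf17 at chr14:56499802-56499867, 1 of those 11, had 31.9 ± 5.81 TPM in KO and 5.20 ± 9.07 in WT. At Tdrkh 7 of 31 copies were higher in KO, and all 7 lay beyond the 3′ end of the gene on its strand, while 3 of the 31 were lower. The B1_Mur4 copy among them, at chr3:94438426-94438512, had 19.4 ± 4.97 TPM in KO and 1.85 ± 2.18 in WT. In spermatogonia 328 copies reached the minimum, 18 of them lower and 9 higher in every KO library. Over all 335377 copies at the minimum in spermatogonia these shares were 2.55% lower and 4.96% higher.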

How the data were processed

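The authors aligned reads to GRCm38 with STAR and counted them with TEtranscripts over GENCODE M25 genes and TE subfamilies, with strand and with multi-mapped reads shared between TE features, and deposited raw counts per gene. Per TE copy, the authors deposited TPM from TElocal. The authors' own fold changes and p-values in the tables were not used. Counts were fitted with edgeR 4.0.16 in R 4.3.3 (filterByExpr, TMM, quasi-likelihood), each stage alone for KO against WT, and all 14 libraries in 4 groups for the interaction and the stage contrasts, on features of both tables. Alternatives used DESeq2 1.42.0, other scalings and filters, a replicate block, the sum of spermatocyte replicates 1 and 4, and each library left out. The fits were also run on simulated counts with known changes. Those libraries were independent and less variable than the ones here, so that run does not give the error rate in these data.

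Columns numbered 4 for spermatogonia belong to samples titled replicate 3. A further spermatogonia library per genotype, excluded by the authors for low RNA quality, was not analysed here. The replicate number entered only the replicate block, and all p-values not named as from it come from fits without it. Deviations of spermatogonia of the same number correlated above 0.1 in each pair (r of 0.76, 0.16 and 0.30 over features), although KO replicate 2 with WT replicate 3 reached 0.31. P-values measure the spread between these libraries. GENCODE M21 gave positions and exon lengths, and all 9 identifiers were in it with the same version. Python 3.11.15 made the tables and plots.

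The members and lists were chosen with earlier results of these data known. Named genes are the 9 members, Dnmt3c, from each list in each comparison the 3 called genes with the largest rise and fall, Mybl1, Piwil1, Piwil2 and Piwil4, and for each member the 3 most alike genes with a mean count of at least 100 (log2 of CPM plus 0.5).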

Additional observations from a re-analysis of the deposited data

Results flagged for a closer look

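In WT spermatocytes the library of replicate 2 stood apart for Tdrd1 (its gap to the next library was 0.888 of the group's range) and for Tdrd9 (0.883). With 18 groups of 4 libraries examined, about 1 in 20 is marked by chance. Without WT spermatocytes replicate 2 both genes still passed in KO against WT.

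The KO effect differed between spermatocytes and spermatogonia, by the edgeR interaction, for Tdrd1 (-2.78 on the log2 scale), Tdrd5 (-2.54), Tdrd7 (-2.43), Tdrd9 (-1.81), Tdrd12 (-1.51), Rnf17 (-1.41) and Stk31 (-1.20).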

How the results depend on the processing

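In spermatocytes 8 members were called in KO against WT with each library left out (lowest and highest 8), with DESeq2 and with the replicate block. In spermatogonia 0 were called with each library left out, and DESeq2 called 1. For the interaction 5 to 8 were called with 1 library left out, 8 with the replicate block and 3 with library totals. The WT stage contrast called 6 to 8 with 1 library left out and 5 with library totals, and the KO stage contrast 0 in each. With 1 library left out, the share of all features called also moved. It was 45.6% to 60.5% in KO against WT spermatocytes and 0.0179% to 0.106% in spermatogonia. It was 14.6% to 36.4% in the interaction, 41.4% to 54.5% in the WT stage contrast and 0.428% to 4.04% in the KO stage contrast. With library totals Tdrkh turned to 0.28 in spermatocytes, 0.33 in the interaction and -0.48 in the WT stage contrast, and in spermatogonia it ran from -0.15 to 0.0091 with 1 library left out (highest without KO replicate 1). In the KO stage contrast Tdrd5 turned to -0.017 and Tdrd7 to -0.0085 without KO spermatogonia replicate 2, and Tdrd7 to -0.00057 without KO spermatocytes replicate 4, where the highest values with 1 library left out were 0.33 and 0.14. In the order of levels in WT spermatocytes 4 places changed with the longest coding transcript and 2 with library totals. Of the 27 most alike genes 6 were found again over 4 group means. The cause of these changes was not tested. The fits with a library left out also had fewer samples. The labels link spermatocyte libraries of the same number only by that number (r of 0.09, 0.25, -0.04 and 0.15). The replicate block called 11629 features there, beside 13124, and 522 in the KO stage contrast, beside 756, and among the members it changed 1 call, that of Tdrd6 in the interaction. The lowest member counts were those of Tdrd6 in KO, at 44 to 345, where depth limits precision most.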
